A study of Mus musculus with 6 samples.

Results

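The enzymes described here are the small intestine's machinery for modifying and conjugating foreign chemicals, drugs and some of the body's own lipids and hormones. They were chosen by symbol: cytochrome P450s of families Cyp1 to Cyp4, UDP-glucuronosyltransferases (Ugt1 and Ugt2), cytosolic and microsomal glutathione transferases (Gsta, Gstm, Gsto, Gstp, Gstt and Mgst) and sulfotransferases (Sult). Of the 19178 genes counted, 83 carried such a symbol, and the 41 with at least 50 counts over the kept cells are the members. They are 15 cytochrome P450s, 14 cytosolic and 3 microsomal glutathione transferases, 6 UDP-glucuronosyltransferases and 3 sulfotransferases. The other 42 symbols held 387 counts in all, and 2 of them held 0. *Gstm6* (52 counts), *Cyp4b1* (58) and *Cyp2c66* (61) lay just above the minimum, and *Cyp3a11* (39), *Gstm4* (36), *Sult1c2* and *Ugt2b5* (34 each) just below it.

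Crypt cells of the small intestine of C57BL6 mice, 10 weeks old, were examined with Drop-seq, which captures single cells in droplets and counts polyadenylated RNA from its 3′ end. Mice whose epithelium lacks *Ptger4* (knockout), the gene of a prostaglandin E receptor, were compared with mice carrying *Ptger4* flox alleles (flox), and the labels give no other treatment. Each genotype has 3 collections from 2 biological replicates; collections 1 and 2 were read from their codes as biological replicate 1 and collection 3 as biological replicate 2, which the labels do not state. Which Cre driver was used, which part of *Ptger4* it deletes and how many mice make a replicate is not given in the sources used here.

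Detoxification runs in stages. Phase I enzymes, mainly cytochrome P450s, insert oxygen into a substrate with electrons that NADPH passes through P450 reductase. Phase II enzymes then attach glutathione, glucuronic acid or sulfate, and efflux pumps export the product. In the intestine this chemistry is best known from mature enterocytes, which meet dietary compounds first, and several of its genes are targets of the receptors for aryl hydrocarbons, pregnanes and androstanes and of NRF2, the factor of the antioxidant response.

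The knockout collections held 1605533 to 2646093 counts and 703 to 981 kept cells, and the flox collections 1228337 to 3146909 counts and 473 to 1053 kept cells. Median counts per kept cell were 1070 to 1254.5 in knockout and 1235 to 1471.5 in flox. The members took 37326 counts, 0.326% of those in kept cells. *Xist* had 1584 and 1457 counts in collection 3 of knockout and of flox and at most 11 in any other collection, so the biological replicates differed in the sex of the animals in the same way in both genotypes. Of 4890 kept barcodes, 133 (2.72%) occurred in more than 1 collection, and all shared ones joined knockout 1, flox 1 and flox 2, or knockout 2, knockout 3 and flox 3. These sets are called inferred runs 1 and 2, and values within them are given where they differ. *Ptger4* itself had 17.4, 19.1 and 24.5 counts per 1000000 counts (CPM) in knockout and 11.9, 13.6 and 15.1 CPM in flox, but 3′ tags do not check a deletion that leaves the 3′ end in place.

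Cells fell into 17 clusters, and 13 of them matched marker genes of 9 classes. Named classes were stem cell-like (1059 cells), goblet-like (728), enterocyte-like (481), B or plasma cell-like (236), Paneth-like (158), T or NK cell-like (152), cycling-like (150), enteroendocrine-like (94) and tuft-like (53). The enterocyte-like class was made of a cluster with 22 of 22 enterocyte markers enriched and one with 15 of 22. The stem cell-like class was made of a cluster of 645 cells with 13 of 19 stem cell markers enriched and one of 414 cells with 3 of 19. At a finer clustering (Leiden resolution 1.5) 392 of its 1059 cells fell in the cycling-like class, which then held 598 cells. Among the unnamed clusters, cluster 2 (449 cells) was led by *Reg3g* and *Reg3b* and is called the *Reg3g* cluster, cluster 3 (417 cells) was led by *Gsdmc4* and *Gsdmc2* and is called the *Gsdmc4* cluster, and cluster 0 (896 cells) was led by noncoding RNA genes. Member genes were left out when clusters were drawn, yet the clusters come from the same cells, so levels by class are given as a description with no test.

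Members as a group were most abundant in enterocyte-like cells. Their summed level there was 7510 CPM, against 4867 CPM in the *Reg3g* cluster, 4418 CPM in the *Gsdmc4* cluster, 3515 CPM in Paneth-like, 3298 CPM in cycling-like, 2229 CPM in goblet-like and 2202 CPM in stem cell-like cells. Immune cells (the T or NK and B or plasma classes, 388 cells) summed to 653 CPM, against 3352 CPM in the 4502 epithelial cells. Barcodes under 100 counts, which can hold free RNA only, summed to 1922 CPM, so some member counts in any class may be free RNA; 37 of 41 members were below 50% of their epithelial level in immune cells. *Cyp4f13*, a P450 of the fatty acid-hydroxylating Cyp4f group, was the exception in direction, with 29.2 CPM in immune cells and 22.1 CPM in epithelial cells. In immune cells 11 members had 0 counts, which allows up to 7.97 CPM (3 counts, counting error only).

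**Figure D1:**
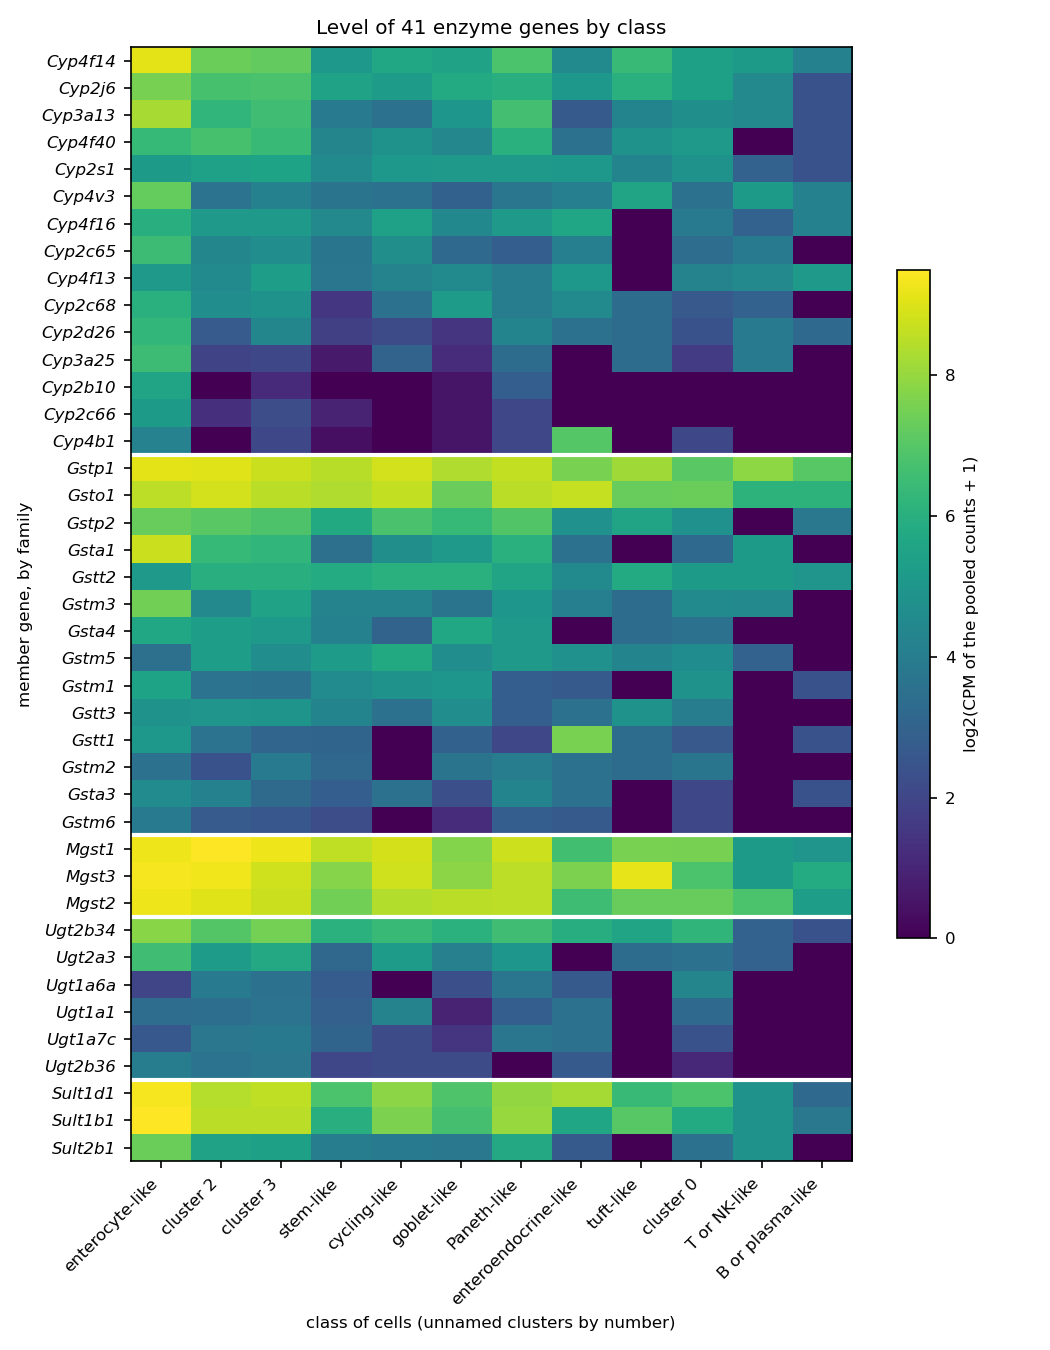
Level of each of the 41 members (rows, by family, with white lines between families) in the named classes and in unnamed clusters 0, 2 and 3 (columns), as log2 of the pooled CPM plus 1 on the colour scale. The enterocyte-like column is the brightest of the named classes for 31 of the 41 members, and *Gstt1* and *Cyp4b1* stand out in the enteroendocrine-like column.

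The enterocyte-like class had the highest level among named classes for 31 of 41 members (75.6%), which holds for 14.4% of the 10168 genes with at least 50 counts. Enterocyte-like cells lay above stem cell-like cells without overlap of the 6 collections for 27 members (65.9%, against 11.6% of all genes). They lay below for 2 members (4.88%, against 17.6%), *Gstt2* and *Gstm5*. At resolution 1.5, with 669 stem cell-like cells, 28 members lay above (10.3% of all genes) and 1, *Gstt2*, below (13.7%), so that *Gstm5* overlapped there. Median counts per cell were 1890 in the enterocyte-like and 1741 in the stem cell-like class.

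Among the cytochrome P450s, *Cyp4f14*, a hydroxylase of leukotrienes and other fatty acids, ranged from 394 to 757 CPM with a median of 554 CPM over the 6 collections of enterocyte-like cells, against 22.4 to 43.9 CPM with a median of 31.9 CPM in stem cell-like cells. *Cyp3a13*, of the subfamily known for oxidising drugs and steroids, had a lowest, median and highest level of 225, 264 and 460 CPM in enterocyte-like cells, against 5.6, 12.3 and 22.8 CPM in stem cell-like cells. For both genes every enterocyte-like collection was well above every stem cell-like one. The second member of that subfamily, *Cyp3a25*, had 49.4, 71.9 and 286 CPM in enterocyte-like cells and 0, 0 and 4.0 CPM in stem cell-like cells. *Cyp4v3*, a fatty acid omega-hydroxylase, had 117, 143 and 256 CPM in enterocyte-like cells, against 6.0, 11.5 and 16.6 CPM in stem cell-like cells.

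The Cyp2 family showed the same split at lower levels. *Cyp2b10*, the classic target of the constitutive androstane receptor, had 10.7, 51.6 and 72.9 CPM in enterocyte-like cells and no count in stem cell-like cells. Of the Cyp2c subfamily, which oxidises drugs and polyunsaturated fatty acids, *Cyp2c68* had 36.9, 67.7 and 83.7 CPM in enterocyte-like cells and 0, 2.0 and 4.0 CPM in stem cell-like cells. *Cyp2c66* had 10.7, 37.9 and 54.7 CPM in enterocyte-like cells, against 0, 0.45 and 2.4 CPM in stem cell-like cells. *Cyp2d26* had 20.5, 64.8 and 123 CPM in enterocyte-like cells, against 0, 2.2 and 5.6 CPM in stem cell-like cells. None of these groups overlapped. *Cyp2s1*, known as inducible through the aryl hydrocarbon receptor, was nearly level between enterocyte-like (35.2 CPM pooled) and goblet-like cells (34.2 CPM). It was lower in stem cell-like cells (21.8 CPM), though the collections of enterocyte-like and stem cell-like cells overlapped. *Cyp4f40* had 104 CPM pooled in the *Reg3g* cluster and 81.4 CPM in the enterocyte-like class. *Mgst1* and *Ugt1a6a* were among other members with a higher pooled level in that cluster than in the enterocyte-like class.

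The regions before the start sites of 2 Cyp2c members are printed because both hold the full motif CAAAGTCCA, bound by HNF4 factors, and both genes were highest in enterocyte-like cells. *Hnf4a*, the gene of one such factor, had pooled levels of 219 CPM in enterocyte-like and 254 CPM in stem cell-like cells. Each is the 250 bases before the RefSeq start in build GRCm38.p6, in the direction of the gene, with the motif in capitals. *Cyp2c65* lies on the plus strand (chr19:39060756-39061005) and its motif begins at -116 from the start. *Cyp2c68* lies on the minus strand (chr19:39741102-39741351) and its motif begins at -77. Neither RefSeq start is a transcript start in GENCODE M21, and the distances count from the RefSeq start.
Cyp2c65: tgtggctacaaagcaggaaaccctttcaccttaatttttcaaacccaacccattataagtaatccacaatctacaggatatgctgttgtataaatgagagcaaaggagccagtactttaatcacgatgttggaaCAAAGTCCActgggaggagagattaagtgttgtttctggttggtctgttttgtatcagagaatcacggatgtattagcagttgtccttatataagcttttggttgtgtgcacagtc
Cyp2c68: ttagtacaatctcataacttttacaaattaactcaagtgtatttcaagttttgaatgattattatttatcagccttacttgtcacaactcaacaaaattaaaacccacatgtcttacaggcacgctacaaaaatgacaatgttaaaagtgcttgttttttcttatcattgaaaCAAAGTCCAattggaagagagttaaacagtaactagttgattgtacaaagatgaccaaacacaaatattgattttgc
RefSeq gave such a window for 39 of the 41 members, and *Cyp2c65* and *Cyp2c68* (5.13%) were the ones with CAAAGTCCA on either strand, against 0.451% of 27025 genes. The shorter CAAAG, which overlaps it, was in 31 of 39 members' windows (79.5%) and in 52.2% of genes' windows. The antioxidant response core TGACNNNGC was in the windows of *Cyp4f14*, *Gsta3*, *Gstm5* and *Mgst1* (10.3%, against 11.5% of genes). The aryl hydrocarbon receptor core GCGTG was in 12 (30.8%, against 30.9%), and the palindromic HNF1 motif in 0 (against 0.0111%). These are letter matches in the windows and no measure of binding.

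Glutathione transferases differed from member to member, also within the mu and theta classes. *Gsta1*, an alpha-class enzyme that conjugates electrophiles, had a lowest, median and highest level of 312, 382 and 747 CPM in enterocyte-like cells, against 7.9, 8.9 and 14 CPM in stem cell-like cells, a pooled ratio of 40.2. *Gstm3*, of the mu class, had 57.0, 210 and 338 CPM in enterocyte-like cells, against 10.0, 15.6 and 30.8 CPM in stem cell-like cells. *Gstp1*, the widely expressed pi-class enzyme, had 492, 555 and 611 CPM in enterocyte-like cells, against 304, 369 and 445 CPM in stem cell-like cells, so its difference was smaller though the collections did not overlap. *Gstp1* and *Gstp2* share the last 300 bases of their transcripts, so a 3′ count method cannot assign reads between them with certainty. *Gsto1*, an omega-class enzyme that reduces dehydroascorbate, overlapped between the cell classes. It had 295, 391 and 460 CPM in enterocyte-like cells and 283, 330 and 393 CPM in stem cell-like cells. Its 3′ end overlaps *Cfap43* on the opposite strand, and strand use of the counting is not stated.

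The pair that ran the other way were *Gstt2*, of the theta class, and *Gstm5*, of the mu class. *Gstt2* had 24.6, 31.4 and 39.0 CPM in enterocyte-like cells, against 48.8, 54.8 and 78.4 CPM in stem cell-like cells. *Gstm5* had 3.8, 10.5 and 15.2 CPM in enterocyte-like cells, against 29.3, 38.3 and 44.8 CPM in stem cell-like cells. Among the named classes both were highest in the 150 cycling-like cells (64.1 and 53.4 CPM pooled). *Gstt2* was nearly level with goblet-like cells (63.5 CPM), and *Gstm5* was next highest in stem cell-like cells (36.9 CPM). *Gsta4*, an enzyme that conjugates aldehydes from lipid peroxidation, had a pooled level of 50.6 CPM in goblet-like cells and the same in enterocyte-like cells.

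Enteroendocrine-like cells, which secrete gut hormones, were the highest named class for *Gstt1*, *Cyp4b1* and *Gsto1*. *Gsto1* was near level, with 406 CPM pooled there, 395 CPM in cycling-like and 372 CPM in enterocyte-like cells. *Gstt1* ranged from 86.2 to 365 CPM over the 6 collections with a median of 203 CPM, against 28.6 to 40.9 CPM in enterocyte-like cells, on 35 counts in 94 cells. *Cyp4b1*, a P450 that oxidises fatty acids, ranged from 0 to 287 CPM with a median of 76.0 CPM, on 23 counts, against 10.2 to 21.3 CPM in enterocyte-like cells. The collections overlapped for *Cyp4b1*, which was at 0 in flox 3, and did not for *Gstt1*.

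The microsomal glutathione transferases, membrane enzymes that also reduce lipid peroxides, were present in all epithelial classes. *Mgst1* had a lowest, median and highest level of 521, 597 and 708 CPM in enterocyte-like cells, against 261, 396 and 454 CPM in stem cell-like cells. *Mgst2*, which can make leukotriene C, had 504.2, 607 and 921 CPM in enterocyte-like cells, against 157, 181 and 202 CPM in stem cell-like cells. *Mgst3* had 576, 650 and 806 CPM in enterocyte-like cells, against 148, 213 and 284 CPM in stem cell-like cells. In tuft-like cells, chemosensory cells known for leukotriene synthesis, *Mgst3* had 453, 512 and 1316 CPM. That class held only 53 cells, 2 of them from flox 2. Its pooled *Mgst3* level was 558 CPM, below the 651 CPM of enterocyte-like cells. *Mgst1* reached 720 CPM pooled in the *Reg3g* cluster, above the enterocyte-like class (608 CPM).

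Of the UDP-glucuronosyltransferases, *Ugt2b34* had 141, 231 and 262 CPM in enterocyte-like cells, against 46.2, 60.1 and 81.3 CPM in stem cell-like cells. *Ugt2a3*, whose human counterpart glucuronidates bile acids, had 75.1, 87.2 and 133 CPM in enterocyte-like cells, against 0, 9.2 and 12 CPM in stem cell-like cells. Neither gene overlapped between these classes. *Ugt1a1*, the bilirubin-conjugating enzyme, *Ugt1a6a* and *Ugt1a7c* had at most 17.8 CPM in any named class. *Ugt1a1* and *Ugt1a6a* share their last 300 bases and *Ugt1a7c* overlaps other Ugt1a genes, so the split of reads between them is uncertain.

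The sulfotransferases were high in enterocyte-like cells. *Sult1b1*, which sulfates phenols and thyroid hormones, had 584, 742 and 888 CPM there, against 48.7, 54.0 and 90.3 CPM in stem cell-like cells. *Sult1d1*, a mouse enzyme for catecholamines, had 455, 667 and 900 CPM in enterocyte-like cells, against 73.3, 108 and 132 CPM in stem cell-like cells. *Sult2b1*, which sulfates cholesterol and steroids, had 92.3, 177 and 235 CPM in enterocyte-like cells, against 4.0, 16.4 and 22.8 CPM in stem cell-like cells. All 3 were without overlap, and *Sult1d1* was next highest in enteroendocrine-like cells (292 CPM pooled).

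The remaining members were lower in counts, apart from *Cyp2j6* (185 CPM pooled in enterocyte-like cells, 43.3 CPM in stem cell-like cells) and *Gstp2* (156 CPM in enterocyte-like, 54.1 CPM in stem cell-like). *Cyp2c65* had 90.2 CPM pooled in enterocyte-like cells, against 12 CPM in stem cell-like cells, and *Cyp4f16* had 60.2 CPM in enterocyte-like cells, against 20.9 CPM in stem cell-like cells. *Gstm1* had 44.7 CPM in enterocyte-like cells, against 23.0 CPM in stem cell-like cells. *Gstt3*, *Gsta3*, *Ugt2b36*, *Gstm6* and *Gstm2* lay between 11 and 28.6 CPM in enterocyte-like cells, against 3.1 to 18.4 CPM in stem cell-like cells, and all 5 had the higher pooled level in enterocyte-like cells.

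The enterocyte-like cells held a subset leaning to ileal markers and one leaning to proximal markers. At resolution 1.5 these were 199 ileal-leaning cells led by *Fabp6*, the ileal bile acid-binding protein, and 268 proximal-leaning cells led by *Fabp1*, the proximal fatty acid-binding protein. *Fabp6* had 37415 to 47891 CPM in the 4 ileal-leaning sums, against 74 to 1506 CPM in the 4 proximal-leaning sums. Median counts per cell were 1846 in ileal-leaning and 1916.5 in proximal-leaning cells. Sums were made per biological replicate, so that each gives an ileal-leaning and a proximal-leaning value, and were tested as pairs with edgeR's quasi-likelihood test over all genes. The clusters were drawn from these cells, so p measures the spread between pairs and not the choice of clusters.

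Members that passed the test were all lower in ileal-leaning cells. They were 10 of the 41, with 11 tested and not passing and 20 with too few counts to be tested; in the same fit 11.6% of 2811 genes passed in either direction, 4.94% higher and 6.65% lower. The median log2 fold change of the 21 tested members was -0.50, against 0.03 over all tested genes. A gene could pass the count minimum through its proximal-leaning sums alone, so the tested members are not a fair sample of the 41.

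The members whose difference held in every alternative that tested them were *Gstm3* (chr3:107963696-107969283), *Cyp4v3* (chr8:45304944-45333216), *Gsta1* (chr9:78230656-78242684) and *Cyp2d26* (chr15:82790101-82794294). These gene bounds are in GRCm38, GENCODE M21. *Gstm3*, *Cyp4v3* and *Gsta1* were tested in 15 alternatives, and *Cyp2d26* in only 10. *Gstm3* had 33.3 and 5.60 CPM in ileal-leaning cells of knockout biological replicates 1 and 2 and 75.5 and 0 CPM in those of flox, against 312, 162, 470 and 67.9 CPM in the proximal-leaning cells of the same 4 replicates (log2 fold change -3.0, SE 0.33, adjusted p = 1.11e-11 by edgeR). Each pair was lower in its ileal-leaning sum, though the highest ileal-leaning value exceeded the lowest proximal-leaning one. *Gsta1* had 246, 190, 322 and 270 CPM in ileal-leaning cells, against 404, 607, 755 and 463 CPM in proximal-leaning cells (-1.03, SE 0.18, adjusted p = 7.24e-06 by edgeR). These groups did not overlap. Of the pi class, *Gstp1* had 373, 487, 423 and 451 CPM in ileal-leaning cells, against 703, 633, 597 and 661 CPM in proximal-leaning cells (-0.50, SE 0.15, adjusted p = 0.0182 by edgeR). *Gstp2* had 113, 118, 85.6 and 116 CPM in ileal-leaning cells, against 202, 248, 140 and 222 CPM in proximal-leaning cells (-0.80, SE 0.25, adjusted p = 0.0262 by edgeR). Neither gene overlapped between the subsets, and with shared 3′ ends their reads cannot be told apart. Both calls depended on single collections: *Gstp1* had an adjusted p of 0.0919 without knockout 1, and *Gstp2* 0.233 without knockout 2, 0.149 without knockout 3 and 0.0703 without flox 3. They also depended on how the subsets were drawn: with clusters at resolution 1.0 the adjusted p by edgeR was 0.114 for *Gstp1* and 0.269 for *Gstp2*, and with segment set from the marker counts of each cell *Gstp2* had -0.46 (0.272). Without pairing the sums it was 0.0696 for *Gstp1* and 0.0627 for *Gstp2*.

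Of the P450s, *Cyp4v3* had 40.0, 72.8, 60.4 and 38.6 CPM in ileal-leaning cells of knockout 1 and 2 and flox 1 and 2 (biological replicates), against 194, 188, 267 and 247 CPM in proximal-leaning cells (-1.93, SE 0.29, adjusted p = 2.58e-07 by edgeR); its 3′ end overlaps the predicted gene *Gm45753* on the same strand. *Cyp2d26* had 46.6, 16.8, 25.2 and 25.8 CPM in ileal-leaning cells, against 118, 68.4, 163 and 86.4 CPM in proximal-leaning cells (-1.87, SE 0.40, adjusted p = 0.000354 by edgeR). *Cyp2c68* had 6.66, 39.2, 25.2 and 25.8 CPM in ileal-leaning cells, against 96.9, 59.9, 104 and 117 CPM in proximal-leaning cells (-1.83, SE 0.43, adjusted p = 0.00127 by edgeR). None of these groups overlapped. *Cyp3a25* had 13.3, 22.4, 116 and 12.9 CPM in ileal-leaning cells, against 114, 94.1, 194 and 74.1 CPM in proximal-leaning cells (-1.43, SE 0.37, adjusted p = 0.00345 by edgeR), and its flox replicate 1 was high in both subsets, so that the groups overlapped. *Cyp3a13* had 147, 246, 191 and 258 CPM in ileal-leaning cells, against 371, 282, 298 and 574 CPM in proximal-leaning cells (-0.73, SE 0.20, adjusted p = 0.00591 by edgeR). Without collection flox 1 *Cyp3a25* had an adjusted p of 0.0634 by edgeR, where flox biological replicate 1 stayed in through collection flox 2. Without collection flox 3 *Cyp3a13* had 0.0725 by edgeR. With the sums not paired, the adjusted p by edgeR was 0.137 for *Cyp3a25* and 0.0551 for *Cyp3a13*.

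*Ugt2a3* had 40.0, 44.8, 45.3 and 77.3 CPM in ileal-leaning cells, against 101, 111, 145 and 179 CPM in proximal-leaning cells (-1.31, SE 0.34, adjusted p = 0.0034 by edgeR). Without collection flox 1 its adjusted p by edgeR was 0.0603. The sulfotransferases were not called: *Sult1b1* had a log2 fold change of -0.39 (adjusted p = 0.0542 by edgeR), *Sult1d1* 0.05 (0.892) and *Sult2b1* 0.55 (0.148). *Sult2b1* had the largest positive value of the 21 tested members, with 140, 196, 242 and 193 CPM in ileal-leaning cells against 131, 145, 163 and 111 CPM in proximal-leaning cells. It was higher in the ileal-leaning sum of 4 of 4 pairs. So was *Gstt3*, with too few counts to be tested (24 ileal, 16 proximal). The microsomal enzymes were not called either, at 0.10 for *Mgst1*, -0.38 for *Mgst2* and -0.22 for *Mgst3*. *Cyp4f14* (-0.26) and *Cyp2j6* (-0.56), a P450 of the Cyp2j subfamily, also did not pass.

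With no count minimum 6 more members passed, all lower in ileal-leaning cells, which made 16 of 41. In that fit 2.74% of 12466 genes passed, 1.79% lower. All members hold at least 50 counts in kept cells, which only 10168 genes do, so these shares are of unlike depth. *Cyp2b10* had 3 counts in ileal-leaning cells, against 59 in proximal-leaning cells, and *Cyp2c66* had 2 in ileal-leaning cells, against 45 in proximal-leaning cells. The others, with their counts in each subset, were *Cyp2c65* (25 ileal, 94 proximal), *Gstm1* (6 ileal, 53 proximal), *Cyp4b1* (2 ileal, 22 proximal) and *Gsta4* (18 ileal, 51 proximal). DESeq2 called *Gstm3*, *Cyp4v3*, *Gsta1* and *Cyp2d26* and none of the other 6 that edgeR called, whose adjusted p by DESeq2 ran from 0.0604 (*Cyp3a25*) to 0.316 (*Gstp2*); 4.38% of genes passed by DESeq2, 2.6% lower. With segment set from the marker counts of each cell, 7 of 19 tested members passed by edgeR, all lower, where 10.6% of 2700 genes passed, 5.78% lower.

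Some general enterocyte genes, which were not left out when clusters were drawn, were also lower. Of 12 tested enterocyte markers that are on no segment list, 6 were lower in ileal-leaning cells (*Fabp2*, *Slc5a1* and *Sis* among them) and 0 higher, where 6.65% of all genes were lower. The other 6 did not pass, 3 of them with values above 0 (*Cdhr2* 0.23, *Anpep* 0.12 and *Krt20* 0.09), and the median of the 12 was -0.38. The part of cell maturity in the differences of the members was not tested.

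**Figure D2:**
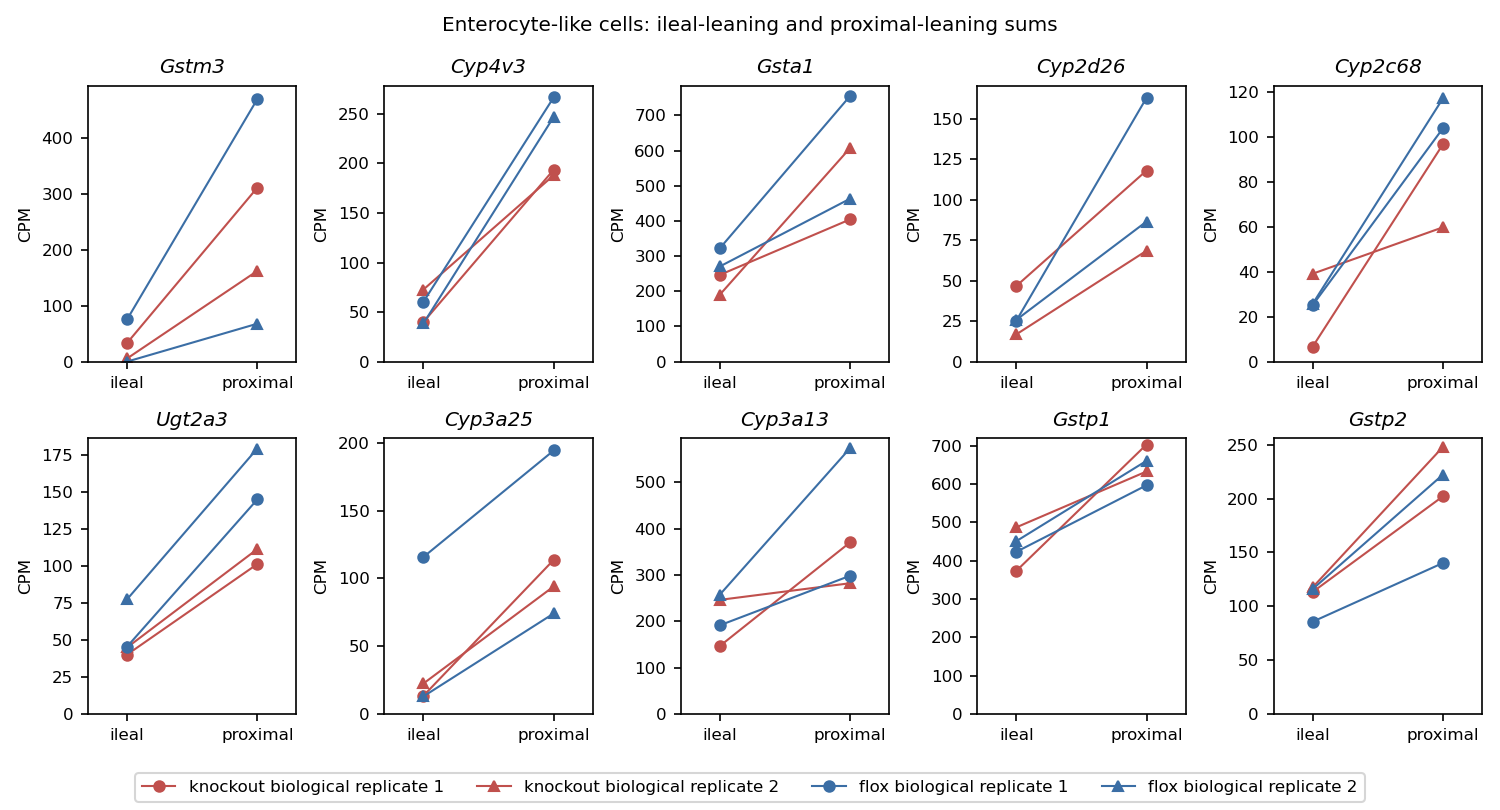
Levels of the members that passed the segment test in ileal-leaning and proximal-leaning enterocyte-like cells, 1 panel per gene, in CPM on linear axes that start at 0, with 1 line per biological replicate joining its ileal-leaning and proximal-leaning sums, knockout in red and flox in blue. All 4 lines run upward to the proximal-leaning side for each of the 10 genes.

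Genes that work with these enzymes were read from the same fit, from 6 lists with 92 genes, of which 50 were tested. Of these, 11 were lower in ileal-leaning cells and 1 higher, where 11.6% of all genes passed. Unlike the members, genes on these lists were not left out when clusters were drawn. Some may therefore have helped to draw the subsets that they are compared between. *Adh1*, an alcohol dehydrogenase, had 6.66, 5.60, 15.1 and 51.5 CPM in ileal-leaning cells, against 240, 282, 240 and 210 CPM in proximal-leaning cells (-3.86, SE 0.39). *Aldh1a1*, which oxidises retinal, had 53.3, 33.6, 146 and 64.4 CPM in ileal-leaning cells, against 278, 154, 493 and 222 CPM in proximal-leaning cells (-1.88, SE 0.25). *Cyb5r3*, the cytochrome b5 reductase that can feed electrons to P450s, had 460, 414, 498 and 554 CPM in ileal-leaning cells, against 1293, 1197, 1063 and 1025 CPM in proximal-leaning cells (-1.18, SE 0.14). Those 3 genes did not overlap between the subsets. Other genes of phase I and II that passed were *Maob* (-1.74), *Ephx2* (-1.53), *Cbr1* (-1.43; also on the proximal marker list) and *Ces2e* (-0.45). *Abcc2*, an efflux pump of conjugates, had -1.41, *Cpox* of heme synthesis -1.44, *Gpx4* -0.69 and *Nfe2l2*, which encodes NRF2, -0.86. The exception was *Slc26a2*, a sulfate transporter, at 0.98 (SE 0.20), with 626, 347, 332 and 335 CPM in ileal-leaning cells against 202, 248, 258 and 167 CPM in proximal-leaning cells. *Por*, the P450 reductase, did not pass (-0.60, adjusted p = 0.42 by edgeR). By list, 6 of 17 other phase I and II enzymes, 2 of 5 NADPH and heme partners, 1 of 11 glutathione and NRF2 genes, 1 of 8 regulators and 1 of 3 efflux pumps were lower, and 1 of 6 donor genes was higher.

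Loss of *Ptger4* was compared over the 4 biological replicates, and no member passed in any cell set. In all kept cells 0 of 41 members passed by edgeR's quasi-likelihood test and 0 had an unadjusted p under 0.05; DESeq2 also called 0, and 0.00947% of 10555 genes passed, a single gene, *Mt1*. Log2 fold changes of the members ran from -0.78 (*Cyp2b10*) to 0.74 (*Cyp4b1*), 21 above 0 and 20 below, with a median of 0.02. The 95% interval lay within a 2-fold change for 27 members and reached past it for 14. The 3 knockout collections overlapped the 3 flox collections for each of the 41 members, whereas they lay apart for 6.99% of the 10168 genes with at least 50 counts.

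**Figure D3:**
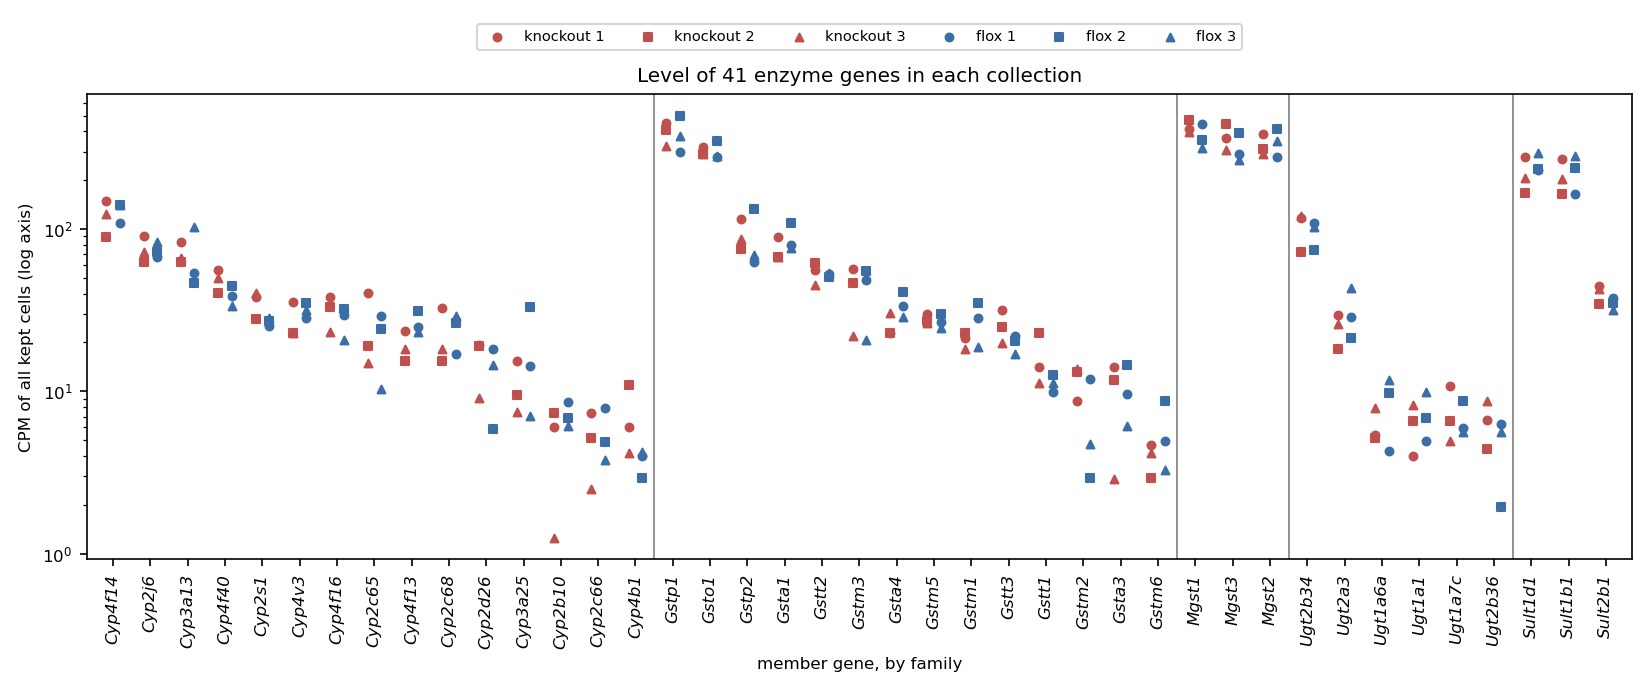
Level of each member over all kept cells in each of the 3 knockout and 3 flox collections, in CPM on a log axis, 1 point per collection, knockout (red) left of flox (blue). The points of both genotypes overlap for all 41 members.

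The abundant members were close in both genotypes. *Mgst1* had 411, 471 and 393 CPM in the knockout collections, in order, and 442, 352 and 316 CPM in the flox collections. *Gstp1* had 449, 406 and 325 CPM in knockout, against 299, 500 and 373 CPM in flox. *Mgst2* had 383, 310 and 292 CPM in knockout, against 276, 412 and 348 CPM in flox. The collections of each overlapped, and the range within each genotype exceeded the difference of the means. *Gsta1* had 89.1, 67.5 and 67.1 CPM in knockout, against 79.8, 109 and 76.4 CPM in flox, and *Cyp4f14* had 149, 89.6 and 124 CPM in knockout, against 109, 141 and 140 CPM in flox.

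The smallest unadjusted p values were those of *Cyp2s1* and *Cyp4f40*. *Cyp2s1* had 38.2, 27.9 and 40.2 CPM in knockout, against 25.2, 27.2 and 28.3 CPM in flox (log2 fold change 0.49, SE 0.23). *Cyp4f40* had 56.3, 40.4 and 49.7 CPM in knockout, against 38.7, 44.7 and 33.5 CPM in flox (0.44, SE 0.22). In both genes 1 knockout collection, the second, lay inside the flox range. *Gstm2* had 8.71, 13.2 and 13.7 CPM in knockout, against 11.9, 2.92 and 4.71 CPM in flox (0.73, SE 0.40). On the lower side were *Ugt2a3* with 29.5, 18.4 and 26.1 CPM in knockout, against 28.8, 21.4 and 43.4 CPM in flox (-0.42, SE 0.27), *Cyp4f13* (-0.35, SE 0.25) and *Cyp2b10* (-0.78, SE 0.60). None of these passed, and the smallest adjusted p of any member by edgeR was 0.9996.

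Within the inferred runs, 22 of the 39 members with a value in both had the same sign in both and 17 opposite signs. Of the 30 that were highest in enterocyte-like cells, 14 had the same sign and 16 opposite signs. The opposite signs ran mostly 1 way: 15 of the 17 were higher in knockout within run 1 and lower within run 2. The same held for 14 of the 16. Each run has 1 collection of one genotype and 2 of the other, so these values rest on few collections. *Cyp3a13* had a log2 fold change of 0.79 within run 1 and -0.65 within run 2, *Sult1b1* 0.50 and -0.59, and *Cyp2c68* 0.75 and -0.76. With the same sign in both were *Cyp2c65* (0.65 and 0.71), *Sult2b1* (0.37 and 0.32), *Cyp2b10* (-0.30 and -0.68), *Cyp2s1* (0.63 and 0.31) and *Cyp4f40* (0.52 and 0.46). Enterocyte-like cells made up 11%, 9.82% and 7.95% of kept cells in knockout 1 to 3, against 9.78%, 8.67% and 11.6% in flox 1 to 3. The part of that share in the values was not tested.

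Within enterocyte-like cells 0 of 31 tested members passed by edgeR, and 1 (*Cyp4f40*) had an unadjusted p under 0.05, where 0.0652% of 4599 genes passed; DESeq2 called 0 members. *Cyp4f40* had a log2 fold change of 0.73 (SE 0.35) and *Cyp2s1* of 1.05 (SE 0.51). *Gstm1* had -0.90 (SE 0.47), *Cyp3a25* -0.69 (SE 0.40) and *Gsta1* -0.39 (SE 0.22). Of the 31, 17 had a 95% interval within a 2-fold change.

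Within stem cell-like cells 0 of 21 tested members passed by edgeR and 0 had an unadjusted p under 0.05 (0.014% of 7157 genes passed; DESeq2 called 0 members). *Gstm3* had 0.77, *Cyp2s1* 0.65 and *Cyp2j6* -0.62 there. Within goblet-like cells 0 of 23 passed by edgeR and 0 had an unadjusted p under 0.05 (0.0154% of 6479 genes passed; DESeq2 called 0). *Cyp3a13* had -0.97, *Cyp2c68* -0.77 and *Sult1b1* -0.72, and on the other side *Gstm5* had 0.51.

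Cycling-like cells gave the members nearest to the threshold. There 0 of 7 tested members passed by edgeR, 2 had an unadjusted p under 0.05 and DESeq2 called 0, where 0.16% of 1248 genes passed. *Mgst1* had 525, 1040 and 388 CPM in the knockout collections, in order, against 303, 136 and 350 CPM in flox (log2 fold change 1.07, SE 0.37, adjusted p = 0.909 by edgeR). *Mgst3* had 681, 721 and 388 CPM in knockout, against 222, 272 and 331 CPM in flox (1.02, SE 0.37, adjusted p = 0.909 by edgeR). For both genes every knockout collection lay above every flox collection, in 150 cells, of which 7 came from flox 2. Among the 1248 genes tested there, knockout and flox collections lay apart for 10.4%, with knockout above for 4.49%. *Mgst1* passed without knockout 3 (1.44, adjusted p = 0.0433 by edgeR), and its value was 0.27 when the class was drawn at resolution 1.5 and 0.17 at 0.5. *Mgst3* had 0.47 at resolution 1.5 and 0.18 at 0.5.

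**Figure D4:**
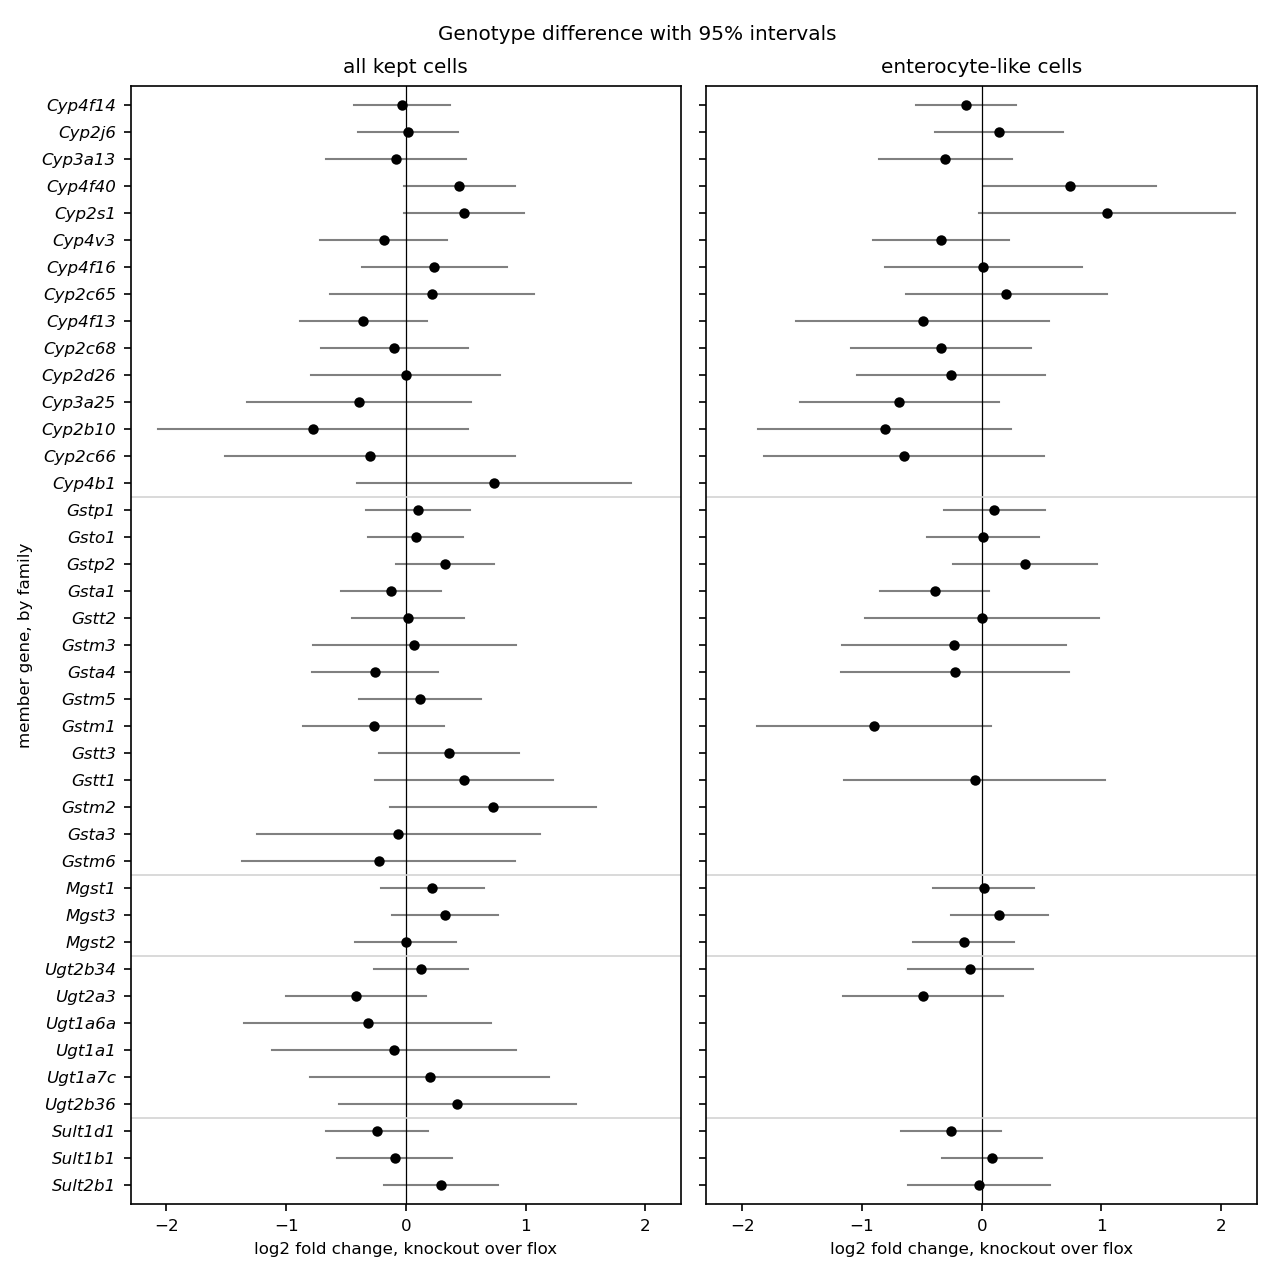
Log2 fold change of knockout over flox for the members in all kept cells and in enterocyte-like cells, with 95% intervals from edgeR and a line at 0; rows with no point in enterocyte-like cells had too few counts to be tested. Intervals in all kept cells include 0 for all 41 members, and *Cyp2s1* and *Cyp4f40* lie to the right in both sets.

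Whether the genotype difference differed between ileal-leaning and proximal-leaning enterocyte-like cells was tested as an interaction. By edgeR 0 of 27 tested members passed and 0 had an unadjusted p under 0.05, where 0.17% of 3520 genes passed, 0.0568% higher and 0.114% lower; DESeq2 called 0 members. *Cyp3a25* had an interaction of -1.49 (SE 0.79), *Cyp2c66* -2.61 (SE 2.10) and *Cyp2b10* 1.91 (SE 1.83), so changes of several-fold in the low members were not detectable at this depth. Of the 75 tested partner genes, 0 passed between the genotypes in all kept cells by edgeR or DESeq2, and 1 (*Gpx4*, which reduces lipid hydroperoxides, log2 fold change 0.42) had an unadjusted p under 0.05.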

How the data were processed

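The authors deposited 1 table of counts per collection, with raw whole-number counts per gene and cell barcode. The aligner was STAR 2.6 and the build mm10, per the submitters' processing notes; which annotation, strand use and molecular identifier settings went into the counts is not given in the sources used here. No column of per-sample values went unused.

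Kept were 4890 of 13191 barcodes, those with 300 or more genes and no more than 25% mitochondrial counts. No upper limit was set and doublets were not removed, as no caller was run. Counts were scaled to 10000 per cell, and 2000 variable genes (members left out) gave 30 principal components, 15 neighbours and Leiden clusters at resolution 1.0 (Python 3.11.15, scanpy 1.11.5, leidenalg 0.10.2), named from marker lists when at least 3 markers were enriched 1.5-fold in at least 10% of cells. A name also needed at least 2 of those markers among the top 10 genes of the cluster, or at least 50% of the measured list enriched. Where several classes qualified, the one with the most markers among the top 10 genes was taken. Levels are counts per 1000000 summed counts (CPM); intervals and floors cover counting error only.

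Counts summed per biological replicate were tested over all genes with edgeR 4.0.16 (R 4.3.3; quasi-likelihood, TMM, minimum count 10, Benjamini-Hochberg, threshold 0.05), and the script was tested on simulated data. P-values measure the spread between 2 biological replicates per genotype. Enterocyte-like cells were divided by segment at Leiden resolution 1.5 rather than 1.0, because at 1.0 the smallest sum had 16 cells, below the set minimum of 20; these sums are paired because both come from the same preparation. Alternatives were DESeq2 1.42.0, no count minimum, single collections, other clusterings and filters, segment set from the marker counts of each cell, and each collection left out. Added after seeing the data were the inferred runs, shared barcodes left out, a minimum of 15 cells and enterocyte-like against stem cell-like cells at resolution 1.5.

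Named members are the 25 with the most counts, those past the threshold and up to 3 per direction with the smallest p in each fit; *Ugt1a1*, *Ugt1a6a*, *Ugt1a7c*, *Gstt1*, *Gsta3*, *Cyp2c66*, *Cyp4b1*, *Gstt3*, *Ugt2b36* and *Gstm6* were also named after their values were seen. Members and lists were chosen with earlier results of these data known. Positions and transcript ends are from GENCODE M21, and start regions from RefSeq.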

Additional observations from a re-analysis of the deposited data

Results flagged for a closer look

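In the segment comparison, each of 67 groups of 4 sums with at least 10 counts was searched for a sum far from the other 3 by Dixon's criterion, and 5 groups held one. Chance flags about 1 in 20 groups. In ileal-leaning cells, flox biological replicate 1 had 116 CPM of *Cyp3a25*, against 12.9 to 22.4 CPM in the other 3 sums, and 85.6 CPM of *Gstp2*, against 113 to 118 CPM. Flox biological replicate 2 had 77.3 CPM of *Ugt2a3* there, against 40.0 to 45.3 CPM. Knockout biological replicate 1 had 79.9 CPM of *Gsta3* there, against 0 to 10.1 CPM, on 15 counts over the 4 sums. In proximal-leaning cells, flox biological replicate 1 had 140 CPM of *Gstm1*, against 37.0 to 46.3 CPM. No cause of these values was tested.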

How the results depend on the processing

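No value changed sign among called results. The count of members past the threshold between genotypes was 0 in all kept cells, in the enterocyte-like, goblet-like and stem cell-like classes and in the interaction under every alternative run; in cycling-like cells it was 0 except 1 without knockout replicate 3 (leave-one-out range 0 to 1). With biological replicate as a replicate block, and with the collection number as a replicate block, it was 0 in each genotype fit. The numbers do not pair the collections: deviations of same-numbered collections correlated at -0.175, 0.0412 and 0.398 over 6549 genes. The difference of biological replicates 2 and 1 correlated at 0.357 between the genotypes, and with biological replicate as a block all-gene calls in enterocyte-like cells were 35, against 3 without it. Over all genes in all kept cells, 1 gene was called, 35 with no count minimum. For the segment, 10 members became 4 with DESeq2, 16 with no count minimum, 6 with single collections as samples, 6 at resolution 1.0 with at least 15 cells, 7 of 19 tested with segment set from the marker counts of each cell and 6 with no replicate block, and 6 to 10 with 1 collection left out (6 without flox replicate 1); all-gene calls were 326, 123 with DESeq2, 342 with no count minimum and 208 with no replicate block. Fewer members were tested in some (16 of 41 as single collections), and otherwise the cause was not tested. *Mgst2* passed without knockout replicate 1 (-0.44, adjusted p = 0.0409 by edgeR) and *Sult1b1* with shared barcodes left out (-0.40, adjusted p = 0.0496 by edgeR). Partner genes called by segment numbered 12, 6 with DESeq2 and 9 to 13 with 1 collection left out. The enterocyte-like class was highest for 30 to 32 members under 3 other clusterings or filters, and lay above stem cell-like cells without overlap for 27 members, 28 at resolution 1.5. Not run for want of cells were stem cell-like cells at resolution 0.5 and the segment fits at 1.0 with 20 cells, at 0.5 and at 600 genes per barcode. Depth limits members under about 20 CPM, whose genotype intervals mostly reached a 2-fold change.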

Other observations

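Collection 3 of both genotypes, the collections with *Xist* counts, lay apart from the other 4 in a share of members not far from that of all genes. Both collection 3 values lay outside the range of collections 1 and 2 for 11 of 41 members (26.8%), against 21% of 10168 genes. They lay below it for 10 of the 41 members, against 9.23% of genes, and above it for 1 of the 41 (*Ugt1a1*), against 11.8% of genes. Some of these members had few counts, such as *Gsta3* (101), *Ugt1a1* (78), *Ugt1a7c* (76) and *Cyp2c66* (61). *Gstm3* was at 22.0 CPM in knockout 3, and at 20.7 CPM for flox 3, against 46.3 to 56.9 CPM in the other collections. *Cyp2c65* had 14.9 and 10.4 CPM, against 19.1 to 40.2 CPM, and *Gsta3* had 2.90 and 6.13 CPM, against 9.60 to 14.6 CPM. In proximal-leaning enterocyte-like cells *Gstm3* had 162 CPM in biological replicate 2 of knockout and 67.9 CPM in that of flox, against 312 and 470 CPM in biological replicate 1 of knockout and flox. The comparison was chosen after its values were seen and carries no test, and sex, preparation and biological replicate cannot be told apart.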
